A study of Mus musculus with 8 samples.

Results

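The clustered protocadherin genes were described in mouse embryonic stem cells from lists of open chromatin regions. They were taken as the RefSeq protein-coding genes on chromosome 18 whose symbol starts with Pcdha, Pcdhb or Pcdhg, which gave 57 of 21887 genes. There were 14 Pcdha, 22 Pcdhb and 21 Pcdhg genes. All regions over the 3 clusters and 50 kb on each side were used, from 36880285 to 37891873 of chromosome 18 in mm10, a span of 1012 kb. The pseudogene Pcdhgb8 is no member.

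The assay was ATAC-seq, where a transposase inserts adapters into accessible DNA, and its 8 samples form 4 groups of 2 replicates. A TET-OFF design in v6.5 cells lets doxycycline shut down Ubc9, and cells given the drug for 72 hours were set against Ubc9 control cells. Ubc9 is the conjugating enzyme of the SUMO pathway. The labels name doxycycline for the depletion only, so the drug and the loss of Ubc9 cannot be told apart. The other pair sets cells with the genotype H1.2-/-H1.3-/-H1.4-/-, which lack 3 linker histones, against H1 wild-type cells, both from an earlier study. Linker histones bind DNA between nucleosomes and compact chromatin. All groups had spent 4 passages in 2i/LIF medium. Whether a line is 1 clone is not stated.

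Clustered protocadherins are cell surface adhesion proteins. Neurons each express a different small combination of them, and contacts between matching combinations let a neuron tell its own branches from those of others. In the Pcdha and Pcdhg clusters each variable exon has its own promoter and is spliced to constant exons that the whole cluster shares, while Pcdhb genes are single-exon genes. Most variable promoters are chosen at random in a neuron, with the help of CTCF and cohesin, which bring a promoter to distant enhancers. The last variable exons of Pcdha and Pcdhg, called C-type, are chosen less at random and more widely used. Known enhancers lie in and after the constant part of Pcdha and after the Pcdhg cluster.

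The authors deposited 1 list of regions per group, made from both replicates. The spread between replicates is thus unknown, no difference could be tested, and counts are set beside those of all regions or genes. A region was called shared when it overlapped a region of the other list of its pair by at least 1 bp, and "only" in its list otherwise. The score is the authors' own value per region, starts at about 50 in each list, and ranks regions within a list. A region missing from a list may lie just under that limit, so a missing region does not show closed chromatin. Intervals are exact 95% binomial intervals and cover counting error only.

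The lists held 48730 regions in Ubc9-depleted and 46847 in control cells, and 58039 in H1 triple-knockout and 55489 in wild-type cells. The read depth behind them is unknown, as is whether the Ubc9 and H1 lists were built alike. Scores of the Ubc9 lists often carried more decimals than those of the H1 lists. The median width of the depleted list was 431 bp, against 367 bp in its control, and those of the H1 lists were 259 and 273 bp. Of 8 stem cell markers, 7 had a region at their start, or at either end for Dppa5a, in each list. Sox2, Nanog, Klf4 and Zfp42 were among them. Pou5f1 lacked one in the knockout list and Esrrb had one in that list alone. Of 8 fibroblast and feeder cell markers, Col1a1 had a region in both Ubc9 lists and Col1a2 in both H1 lists. Of 8 neural markers between 3 and 5 had one, with Map2, Sox1 and Neurod1 in all 4.

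Over the protocadherin clusters and flanks the Ubc9-depleted list held 37 regions and its control 36, and the H1 knockout list 44 and its wild type 40. Merging regions that overlap gave 70 separate sites. Of these, 20 (28.6%) lay in all 4 lists, 8 in 3 lists, 10 in 2 and 32 (45.7%) in 1 list, while over the genome 21.8% of 94652 sites lay in all 4 and 45.6% in 1. The share of unshared regions was near that of the genome in each list. It was 15 of 37 in depleted cells (40.5%, interval 24.8 to 57.9, genome 45.6%) and 14 of 36 in control cells (38.9%, 23.1 to 56.5, genome 43.3%). In the H1 pair it was 13 of 44 in knockout cells (29.5%, 16.8 to 45.2, genome 31.4%) and 9 of 40 in wild-type cells (22.5%, 10.8 to 38.5, genome 28.8%).

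**Figure D1:**
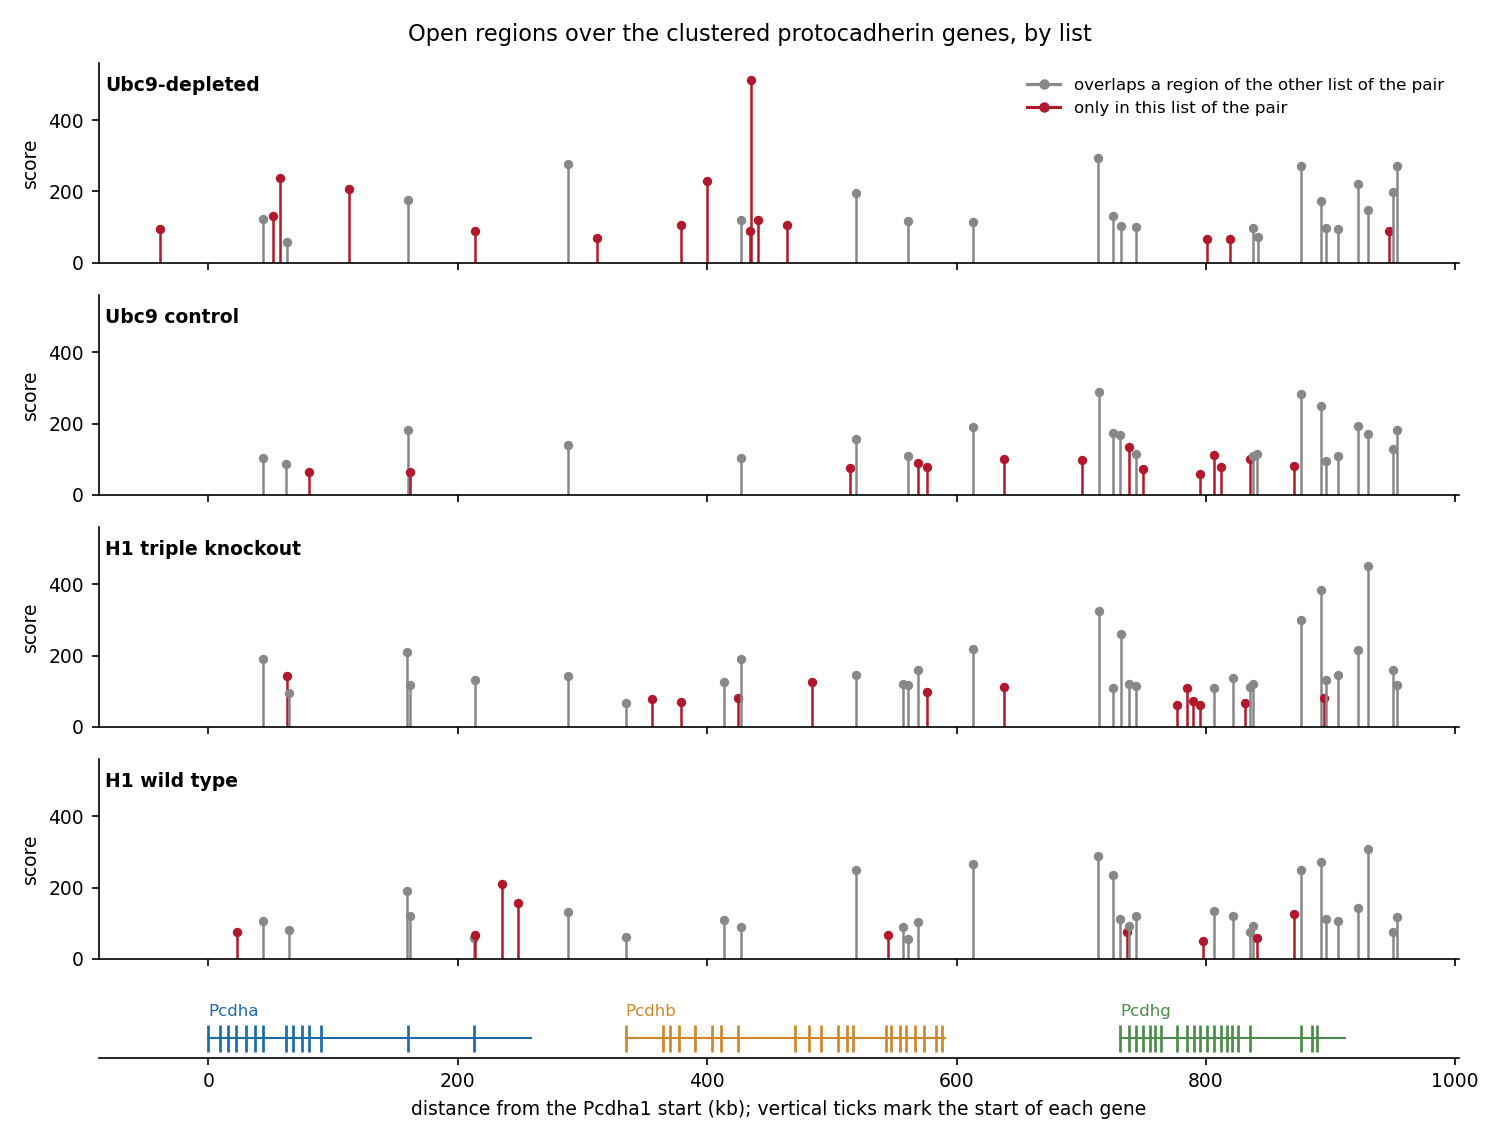
Deposited score of each open region against its distance in kb from the Pcdha1 start, 1 panel per list, with gene starts as ticks at the bottom. Grey regions overlap the other list of the pair and red ones do not. The highest bar is the depleted-only region of score 511 in a stretch of the Pcdhb cluster without genes. In the control list 7 of 15 bars over Pcdhg are red (46.7%), near the 43.3% of the whole list.

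Most gene starts in the clusters had no listed region. The start of a member was the end of the gene with the lower coordinate, which for Pcdha and Pcdhg is the end opposite the shared constant exons, and a region within 1000 bp was counted. Such a region was found at 8 of 57 members in depleted and 13 in control cells, and at 17 in H1 knockout and 12 in wild-type cells. Of 17492 genes with an annotated start on other chromosomes, the share was 55.8%, 54.6%, 52.6% and 53.1% in the same order. A gene there was counted at any of its annotated starts and a member at a single end, which can raise the share of the former. The starts of 35 members had no region in any list. The scores at the open starts were low as well, with medians of 101, 102, 115 and 110 against 277, 219, 257 and 241 over all such genes.

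The clusters differed among themselves. Pcdhg had 4, 9, 11 and 7 open starts of 21 in depleted, control, knockout and wild-type cells, Pcdha 4 of 14 in each list, and Pcdhb 0, 0, 2 and 1 of 22. The ends that the genes share, counted once, had no region within 1000 bp in any list. This held for the common Pcdha end near 37187657, for the separate end of Pcdha6 at 37188897 and for the common Pcdhg end near 37841873.

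The C-type genes split into open and unlisted starts. Pcdhgc3 (start 37806410) had a region in every list, with scores of 272 in depleted, 283 in control, 299 in knockout and 250 in wild-type cells, each above at least 79.6% of its list. Pcdhac1 (start 37090136) was also open in every list, at 175, 182, 211 and 191. Pcdhac2 (start 37143678) had a region in depleted (88.1) and knockout cells (131) and none in control cells. Wild-type cells had 2 there, one across the start (58.1) and one centred 588 bp after it (67.0). Pcdhgc4 and Pcdhgc5 had no region at their start in any list.

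Among the variable genes, Pcdha7, Pcdhga1 and Pcdhga3 were open in all 4 lists. Pcdha7 (start 36973811) scored 122 in depleted, 102 in control, 191 in knockout and 107 in wild-type cells. Its region was centred between 553 and 571 bp after the start, inside the gene. Pcdhga1 (start 37661775) scored 103, 168, 259 and 112, and Pcdhga3 (start 37674335) scored 99.8, 114, 115 and 120. At both Pcdhg genes the region lay across the start itself. Pcdhgb7 had a region in knockout (138) and wild-type cells (121) alone, centred 799 and 818 bp after its start.

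**Figure D2:**
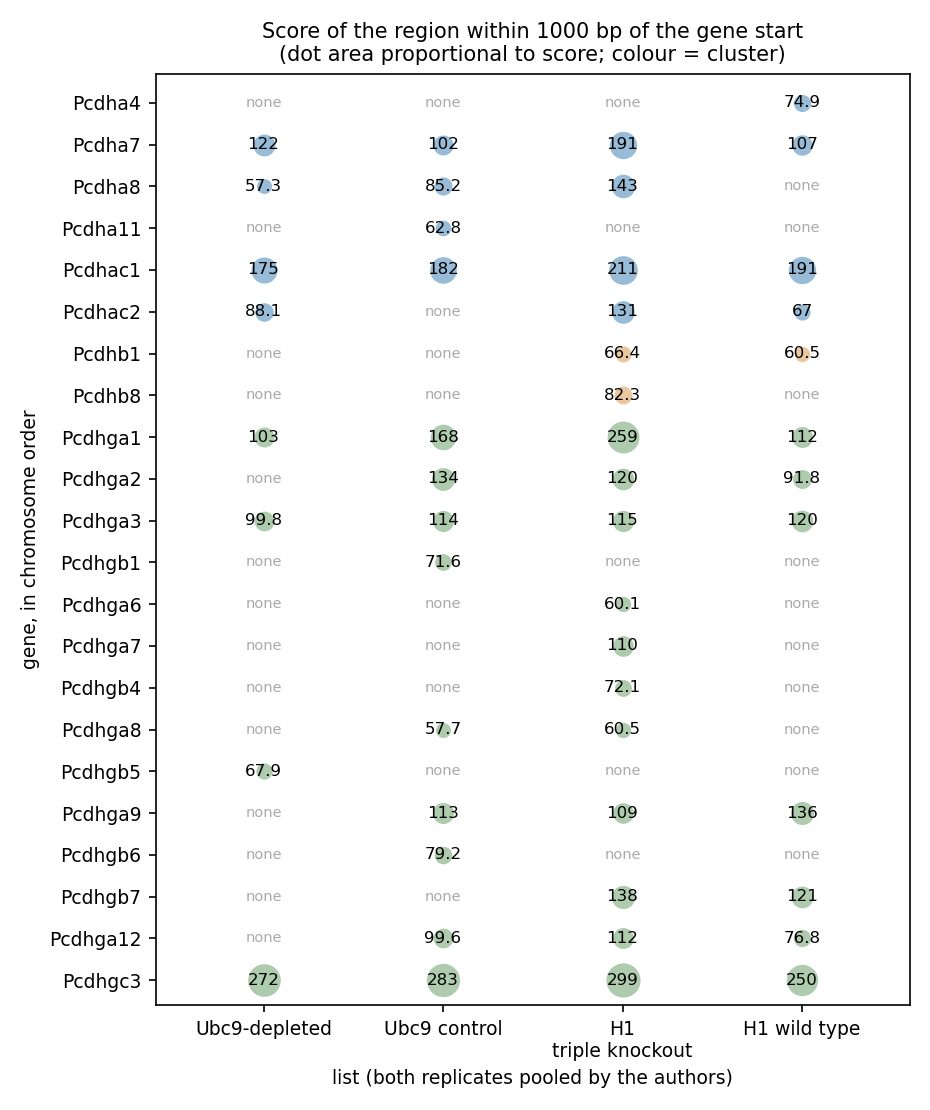
Deposited score of the region within 1000 bp of the start of each of the 22 members that had one in any list, by list; the area of a dot is proportional to the score and its colour marks the cluster. Pcdha7, Pcdhac1, Pcdhga1, Pcdhga3 and Pcdhgc3 carry a score in all 4 columns, and the depleted column has 4 Pcdhg entries against 9 in the control column. Of all genes with a start region in control cells, 6.58% had none in depleted cells. Among those with a control score under 150 it was 18.5%.

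Pcdhb genes were open inside the gene and seldom at the start. Regions inside Pcdhb genes formed 11 sites in 11 different genes, and the centres of these 11 sites lay between 1998 and 2407 bp after the gene start, with a median of 2167 bp. Their distance to the other end of the gene ran from 341 to 2922 bp, because the genes differ in length. The site thus kept its place relative to the start. This pattern was picked out after its values were seen.

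Pcdhb14 (37447657 to 37451094) had an inner site in every list, at 195 in depleted, 157 in control, 146 in knockout and 248 in wild-type cells. It was the highest inner score in each list but the knockout list, where Pcdhb8 and Pcdhb19 scored higher. Pcdhb8 scored 120, 103, 190 and 89.2, and Pcdhb18 scored 117, 108, 117 and 56.6. These were the 3 inner sites found in every list. Pcdhb19 lacked a region in depleted cells only (90.3 in control, 159 in knockout and 103 in wild-type cells). Pcdhb7 (125 and 108) and Pcdhb17 (120 and 89.2) had theirs in the knockout and wild-type lists alone. Pcdhb20 was open in control (78.1) and knockout cells (98.5), and Pcdhb4 in depleted (107) and knockout cells (70.3). Pcdhb10 (knockout, 125), Pcdhb13 (control, 75.7) and Pcdhb15 (wild type, 67.1) had a region in 1 list.

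The same positions were counted in 1838 other genes between 2340 and 5271 bp long, the range of the Pcdhb genes. Those genes were counted from any of their annotated starts, and Pcdhb genes from a single end. A window of 1000 bp was set around the inner sites, after they were seen. A region centred in it was found in 4, 6, 9 and 7 of the 22 Pcdhb genes, that is 18.2%, 27.3%, 40.9% and 31.8%, and in 1.74%, 1.58%, 1.96% and 1.8% of the other genes. A region centred within 500 bp of the start was found in 0, 0, 2 and 1 Pcdhb genes and in 42.1%, 40.2%, 39.2% and 39.0% of the others. The Pcdhb genes with such a start region were Pcdhb1, in knockout (66.4) and wild-type cells (60.5), and Pcdhb8, in knockout cells (82.3). Pcdhb genes resemble one another in sequence, and the sources used here do not give how reads that fit several of them were placed.

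Some Pcdha and Pcdhg regions also lay in the 1000 bp window set around the Pcdhb sites. Pcdhac1 had, beside its start, a region centred about 1944 bp after it in control (63.0), knockout (119) and wild-type cells (120), and Pcdha8 one about 2200 bp after its start in knockout (95.5) and wild-type cells (82.3). In Pcdhg, 4, 9, 10 and 6 regions were centred within 500 bp of a start, with medians between -62.5 and -28.5 bp (before the start), and 2, 1, 1 and 2 were centred in the window of the Pcdhb sites. The site in Pcdhga12, 2703 bp after the start, was in all 4 lists (96.6, 109, 120 and 91.2). The Pcdhb sites themselves spanned 1998 to 2407 bp. Of the Pcdha and Pcdhg sites, only that of Pcdha8 and a wild-type one 2240 bp after the Pcdhga8 start (51.1) lay in that span.

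**Figure D3:**
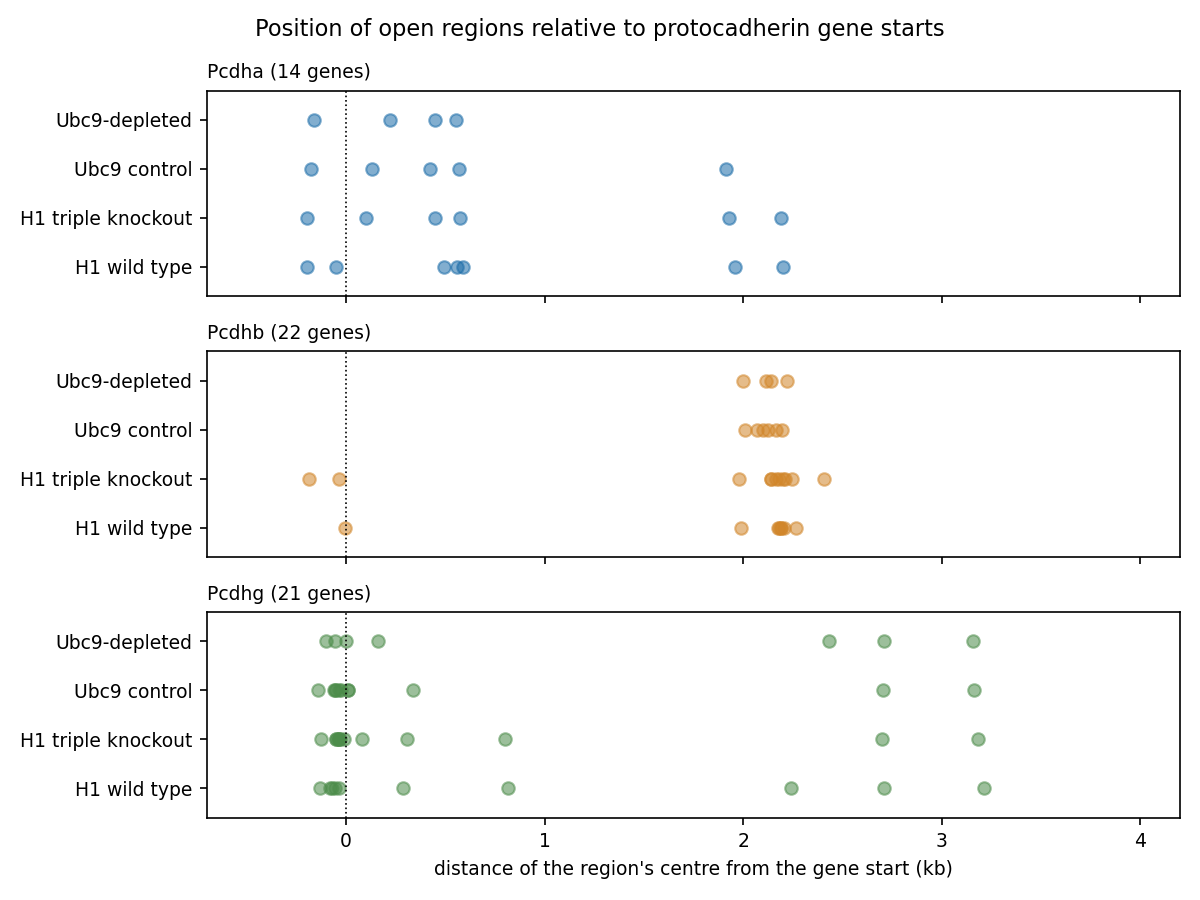
Distance in kb of the centre of each region from the start of its gene, by cluster (panels) and list (rows); Pcdhb regions are shown up to the end of the gene and Pcdha and Pcdhg regions up to 4 kb after a start. Pcdhb points inside genes gather between 1977 and 2407 bp after the start, and most Pcdhg points at the start itself.

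Depletion of Ubc9 is the question of the first pair of lists, and SUMO conjugation itself was not measured here. The depleted list held a region at 4 Pcdhg starts and the control list at 9, with 3 starts in both. Pcdhga2, Pcdhgb1, Pcdhga8, Pcdhga9, Pcdhgb6 and Pcdhga12 had a start region in control cells only, and Pcdhgb5 in depleted cells only. With Pcdha11 (62.8) in control cells only and Pcdhac2 in depleted cells only, the numbers over all members were 7 of 13 and 2 of 8. Over all genes with a start region in control or depleted cells, 6.58% and 8.6% had it in that list only.

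In the control list the 6 Pcdhg regions scored 134 at Pcdhga2, 113 at Pcdhga9, 99.6 at Pcdhga12, 79.2 at Pcdhgb6, 71.6 at Pcdhgb1 and 57.7 at Pcdhga8. Those of Pcdhga2, Pcdhga9 and Pcdhga12 were also in both H1 lists. Those of Pcdhgb1 and Pcdhgb6 were in the control list alone. The region of Pcdhgb5 in depleted cells scored 67.9, above 8.63% of its list.

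Of the 13 members with a start region in control cells, 53.8% (interval 25.1 to 80.8) had none in depleted cells, against 6.58% of all genes with one. Regions of low score are unshared more often. Among genes with a control score under 150, a limit set after the values were seen, the share was 18.5%, and it was 7 of 10 among the members. In the other direction 2 of 8 members (25.0%, 3.19 to 65.1) had a start region in depleted cells only, against 8.6% of all genes with one and 26.8% of those with a depleted score under 150. With a score of at least 100 required in both lists, 3 members had a start region only in control cells and 0 only in depleted cells. Requiring 100 only of the region counted, and nothing of the other list, left 2 and 0. Neighbouring members are not independent, so these counts have less weight than as many separate genes.

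Of the 15 regions only in depleted cells, 2 were at a member start, 1 inside Pcdhb4, 9 elsewhere in a cluster and 3 in a gap or flank. Of the 22 shared regions of that list, 6 were at a member start, 3 inside Pcdhb genes, 5 elsewhere in a cluster and 8 in a gap or flank. Of the 14 only in control cells, 7 were at a member start, 3 inside Pcdhb genes, 2 elsewhere in a cluster and 2 in the gap before Pcdhg. Elsewhere in a cluster 9 of 14 depleted regions were unshared (64.3%, 35.1 to 87.2), against 45.6% of the whole list. At member starts it was 7 of 13 control regions (53.8%, 25.1 to 80.8), against 43.3% of the whole list. Both intervals hold the share of the whole list, which counts regions at any place. Of all genes with a start region in control cells, only 6.58% had none in depleted cells, which lies below the interval at member starts. Among those with a control score under 150 it was 18.5%, against 7 of 10 such members. Of the depleted-only regions, 13 had no overlap in any other list.

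The depleted list's highest-scoring region in the locus was one of these 13. It spans 37365113 to 37366005 in a stretch of 43.2 kb without a member between Pcdhb8 and Pcdhb9, centred 7.95 kb after the end of Pcdhb8, and its score of 511 is above 94.8% of the depleted list. Another 3 depleted-only regions lay in the same stretch, with scores of 88.0, 119 and 107. The control and both H1 lists had no region there. Others were centred 3.69 kb before Pcdhb6 (229), 4.69 kb before Pcdha8 (238, with a width of 2081 bp) and 22.6 kb after Pcdha12 (206).

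Overlap with the H1 lists was near that of the whole genome. Of the 15 depleted-only regions, 2 (13.3%, 1.66 to 40.5) overlapped a region of either H1 list, and of the 14 control-only regions 9 did (64.3%, 35.1 to 87.2). Over the genome the shares were 16.2% and 75.8%. All 22 shared regions of each list overlapped an H1 region, against 91.0% over the genome. Regions of the depleted list were wider here too, with a median of 390 bp against 321 bp, and the part of this in the result was not tested.

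**Figure D4:**
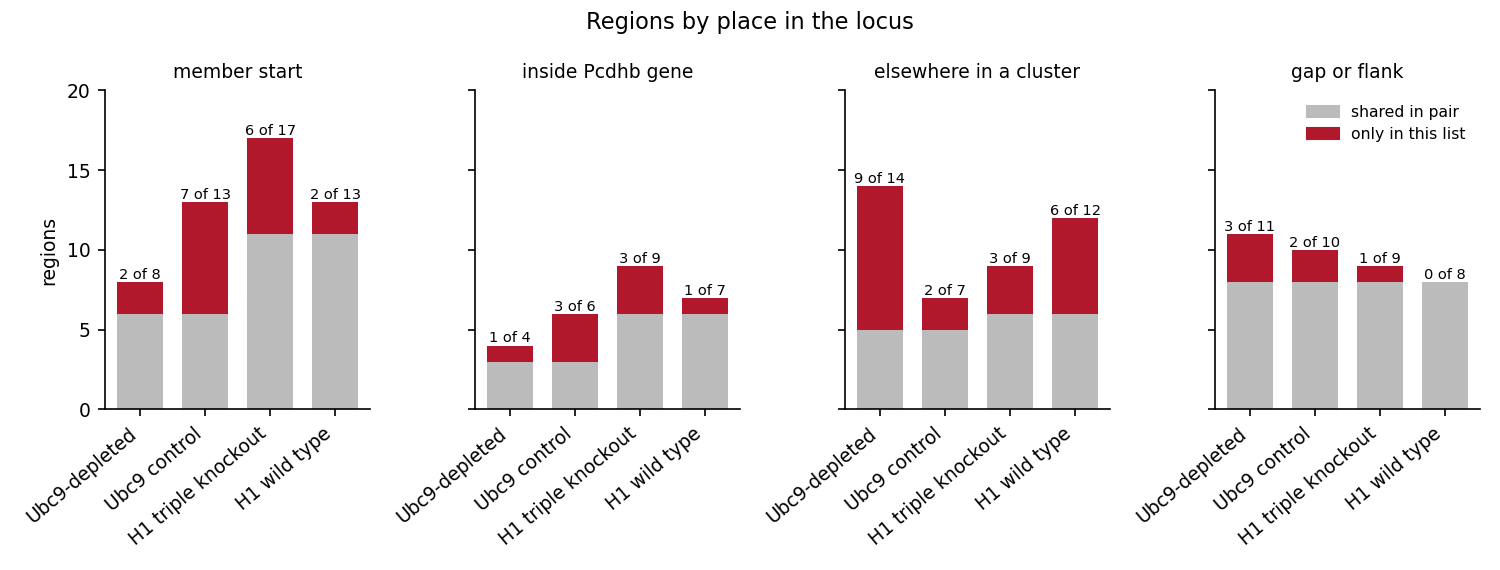
Number of regions in each list by place: within 1000 bp of a member start, inside a Pcdhb gene, elsewhere in a cluster, and in a gap or flank. Grey is shared within the pair and red is only in that list, with the red count and the total above each bar. Red is 7 of 13 at starts in control cells and 9 of 14 elsewhere in a cluster in depleted cells. The intervals of both shares hold those of the whole lists, 43.3% and 45.6%, which count regions at any place. Of all genes with a start region in control cells, 6.58% had none in depleted cells, a share below the interval at starts.

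The other pair addresses the loss of 3 linker histones. At Pcdhg starts the knockout list held all 7 genes of the wild-type list and 4 more. These were Pcdhga6, Pcdhga7, Pcdhgb4 and Pcdhga8, which follow one another in the cluster with starts 7.73, 5.54 and 5.33 kb apart. Their scores were 60.1, 110, 72.1 and 60.5, above 4.3%, 36.0%, 12.4% and 4.68% of the knockout list. The start of Pcdhga8 was also open in Ubc9 control cells, and those of the other genes in no other list. Over the whole Pcdhg cluster 6 of 17 knockout regions were unshared (35.3%, 14.2 to 61.7), near the 31.4% of the whole list.

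Outside Pcdhg, Pcdha8 (143) and Pcdhb8 (82.3) had a start region in knockout cells only and Pcdha4 (74.9) in wild-type cells only. Pcdha8 was open in both lists of the Ubc9 pair as well, at 57.3 and 85.2. Over all members 6 of 17 start regions were in knockout cells only (35.3%, 14.2 to 61.7), against 7.23% of all genes with one. In wild-type cells only it was 1 of 12 (8.33%, 0.211 to 38.5), against 8.14%. Among genes with a score under 150 the shares were 25.5% and 24.2%, and among such members 6 of 13 and 1 of 10. Requiring 100 only of the region counted left 2 members that had a start region in knockout cells only and 0 in wild-type cells only.

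Inside Pcdhb genes the knockout list alone of the pair held the sites of Pcdhb4, Pcdhb10 and Pcdhb20 and the wild-type list alone that of Pcdhb15. The Pcdhb cluster as a whole had 11 regions in knockout cells, 5 of them unshared (45.5%, 16.7 to 76.6), and 7 in wild-type cells, 1 of them unshared (14.3%, 0.361 to 57.9). Both intervals hold the shares over all regions, 31.4% and 28.8%.

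H1 wild-type cells had a pair of regions between the Pcdhac2 start and the common Pcdha end that no other list held. They span 37165448 to 37165816 and 37178314 to 37178614, centred 22.0 and 34.8 kb after the Pcdhac2 start and 22.0 and 9.2 kb before the common end of the cluster. Their scores were 211 and 157, above 73.3% and 59.5% of the wild-type list. These were the highest scores among the 9 regions in wild-type cells only. The table used here gives gene ends but no exons, so which exon or intron they lie in was not determined.

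Other sites found in every list lay away from member starts. In the gap between Pcdha and Pcdhb, a site 30.7 kb after the common Pcdha end (37218183 to 37218507) was in every list, at 278 in depleted, 139 in control, 144 in knockout and 133 in wild-type cells. Its score was above 81.7% of the depleted list and above 50.3% to 55.8% of the others. Of the 5 sites in the flank after Pcdhg, 4 were in all lists, centred 10.4, 18.3, 38.4 and 41.8 kb after the common end and inside Diaph1, a formin gene. The site at 18.3 kb scored 148, 171, 452 and 309, and stood above 94.0% of the knockout list and 57.5% of the depleted list. That at 41.8 kb scored 271, 183, 118 and 118.

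Inside the Pcdhg cluster, 4 sites lay between the Pcdhgc5 start and the common end. Those centred 19.1, 15.5 and 5.72 kb before that end were in every list, and the one at 19.1 kb scored 173, 248, 384 and 273. The site 16.9 kb before it was in knockout cells alone (80.2). Over the 13 sites in gaps and flanks 8 were in all 4 lists, against 5 of 22 at member starts, 3 of 11 inside Pcdhb genes and 4 of 24 elsewhere in a cluster. Over the genome 21.8% of sites were in all 4 lists. The 8 sites include those inside Diaph1 and the one at the upper end of Taf7. Median scores in gaps and flanks were 147.8, 171.7, 160.5 and 189.6, against 101.2, 102.1, 115.0 and 107.2 at member starts. Whether any of these sites is one of the known enhancers was not tested.

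Protocadherins that lie outside the clusters had a region more often than the members did. Of 12 such genes 7 had one in depleted and 8 in control cells, and 7 in each H1 list. Over all genes with an annotated start the share was 55.8% in depleted, 54.6% in control, 52.6% in knockout and 53.1% in wild-type cells. Pcdh1, Pcdh11x and Pcdh12 had no annotated start and were counted at either end. Pcdh8, Pcdh9, Pcdh10, Pcdh17, Pcdh18 and Pcdh19 were open in every list, with Pcdh17 at 362 in depleted, 507 in control, 721 in knockout and 515 in wild-type cells. Pcdh20 (97.7), like Pcdh1 (64.2), had a region in control cells and not in depleted cells, and Pcdh20 was open in both H1 lists (186 and 171). Pcdh11x (69.4) had one in depleted cells only.

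The factors that act on promoter choice were mostly open. Of 15 genes, 13 had a region in depleted and 12 in control cells, and 11 in each H1 list. Over all genes with an annotated start, between 52.6% and 55.8% had a start region. Those open in every list included Ctcf, the cohesin genes Smc1a, Smc3, Stag1 and Stag2, and the silencers Setdb1, Trim28 and Smchd1. The DNA methyltransferase Dnmt1 was open in every list too. Rad21, also a cohesin gene, Nipbl and Stag2 had no annotated start and were counted at either end. Rad21 and Nipbl had no region there in any list, and a start away from both ends would be missed. Dnmt3b, another DNA methyltransferase, had a region in depleted cells only (134). Wiz (97.1) had one in H1 wild-type and not in knockout cells, and Dnmt3a (77.1) in knockout and not in wild-type cells.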

How the data were processed

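Per the submitters' processing notes, CASAVA 1.8.2, Bowtie2, Picard and MACS 1.4.2-1 were used with the build mm10. The sources used here do not give settings, any shift of reads for the transposase or how replicates were combined. According to the labels, each reaction used 50000 cells and 12 PCR cycles. The deposited score per region was used as it stands and only ranks regions within a list.

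Members and gene lists were chosen with earlier results of these data known. Gene positions came from RefSeq tables of GRCm38.p6, which shares its coordinates with mm10. They give no strand for members, and Pcdhb genes were read in the direction of Pcdha and Pcdhg. Ends within 50 bp were counted once, which gave 82 distinct ends. Starts of other genes came from the RefSeq promoter table, and listed genes without an entry there were counted at both ends. All 22 members with a start region are named, with the C-type genes. Sites are chains of regions that overlap by at least 1 bp, computed with Python 3.11.15. The overlap steps were tested on simulated data, with 0 calls that disagreed with a direct comparison. Intervals came from scipy 1.17.1. Promoter sequences of the members were not analysed here.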

Additional observations from a re-analysis of the deposited data

Results flagged for a closer look

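A region at the start of the pseudogene Pcdhgb8, which is no member and entered no comparison of genes, was found in H1 triple-knockout cells with a score of 66.7, above 8.83% of that list. It drew attention as a signal outside the measured genes that the control list of the pair lacks, and no other list held it either. The difference was not tested.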

How the results depend on the processing

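No paired analysis was possible because each list was made from both replicates, which also leaves no replicate to leave out. When both lists were limited to scores of 100 or more, unshared regions of the depleted and control lists numbered 8 and 6, members with a start region only there 0 and 3, regions only in wild-type cells 3, and members only there 0. With that score in the list counted alone, they numbered 8 and 2 regions and 0 and 2 members in the Ubc9 pair, and 4 and 3 regions and 2 and 0 members in the knockout and wild-type lists. A start window that reached 2500 bp outward and 500 bp into the gene gave 2 members in wild-type cells only. All other counts stayed within 1.5 times under these settings, under an overlap of 50% of the shorter region, a distance of 500 bp, equal numbers of top-scoring regions, no flank, and start windows of 500 bp. Members were counted under the score limits, the start windows and equal numbers, and in each of these more had a start region only in control than only in depleted cells. The depth is unknown and limits what a missing region shows.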

Other observations

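Other genes lie among the clusters. Taf7, a subunit of a general transcription factor that sits between Pcdhb and Pcdhg, had a region at its upper end in every list, at 293 in depleted, 288 in control, 325 in knockout and 290 in wild-type cells. Slc25a2, next to it, had none at either end in any list. The table also holds 3 genes, Gm37013, Gm38666 and Gm38667, that begin at Pcdha exons and end with Pcdhg. Gm38667 starts at Pcdha7 and shares its region, so the 2 cannot be told apart. The same holds for Gm37013 and Pcdha4, which share the region found in H1 wild-type cells only (74.9).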
